A study of Bos taurus with 28 samples.

Results

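Of 28054 bovine transcripts, 107 peaked in the conceptus of day 13, the ovoid stage at which the embryo and its membranes begin to elongate. They were chosen by their measured levels: a day 13 median of at least 10 RPKM (reads divided by transcript length in kilobases and by the size of the library) that was at least 3 times the median of each of days 7, 10, 16 and 19. The 107 made up 1.38% of the 7735 transcripts with a day 13 median of 10 RPKM or more. One transcript, ENSBTAT00000011088, was left out by name. It would not have met the limits, with a day 13 median of 18.3 RPKM against 54.4 on day 10, a ratio of 0.337.

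The study followed the bovine conceptus by sequencing of polyadenylated RNA at 5 stages. Day 7 was the blastocyst, day 10 the sphere that has left the zona pellucida, day 13 the ovoid conceptus, day 16 the filament at maternal recognition of pregnancy, and day 19 the filament at the beginning of implantation. All came from oestrus-synchronised crossbred beef heifers bred to a single bull, and no group carried a treatment of the conceptus or an engineered allele. By the protocols, embryos of days 7 and 10 came from superovulated donors and went into pools of 5, while conceptuses of days 13, 16 and 19 were processed singly. The sample characteristics of day 13 instead state superovulation and pooling, so the labels disagree on that day. Messenger RNA was captured directly, without a total RNA step, on days 7, 10 and 13, but on days 16 and 19 total RNA was made first. The change of preparation falls between days 13 and 16 and cannot be told apart from stage there, nor in any comparison that spans it.

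In ruminants the blastocyst hatches and floats free in the uterine lumen for days before it attaches. It passes through spherical and ovoid forms and then lengthens into a filament, mostly by growth of the trophectoderm, the outer layer that forms the fetal part of the placenta, with the hypoblast lining it. The embryonic disc forms its germ layers over the same period, and the elongating trophectoderm secretes interferon tau, the signal by which the mother recognises the pregnancy. The files name transcripts by Ensembl identifier and pair none with a gene, and 0 of the identifiers matched the gene table at hand, so the roles of the members, their sequences and the markers of trophectoderm, hypoblast, epiblast and uterine tissue were not analysed here.

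The labels give 6 libraries for day 7, 7 for day 10 and 5 for each of days 13, 16 and 19. In 3 of them the file carries the title of a sample of another day (day 16 replicate 5, day 19 replicate 5 and day 7 replicate 6), and the rule left these out. Day 16 replicates 2 and 3 differed by little more than sampling noise over all transcripts, with a mean chi-square of 1.19 against 5.38 to 18.0 for the other pairs of that day. They were averaged and counted as 1 sample, which leaves 24 replicates: 5, 7, 5, 3 and 4 in order of day. Totals ran from 473552 to 10871501 reads. Day 13 replicate 5 stands apart from its group: it held 1232705 reads, the other 4 from 4636213 to 6500130, and its mean chi-square against each of them was 51.4 to 59.6, while pairs of those 4 gave 14.1 to 45.2. Values on day 13 are therefore also given without it. The protocols call the replicates biological, but no label names the heifer behind each library, so a p-value measures only the spread between these samples. In a bulk sample, more cells of a type and more RNA per cell cannot be told apart.

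The levels of the members on day 13 ran from 10.3 to 766 RPKM, with a median over members of 33.7 (quartiles 17.5 and 62.8). Of the 107, 34 had a day 13 median of 10 to 20 RPKM, 37 of 20 to 50, 18 of 50 to 100 and 18 of 100 or more. The median over members was 3.38, 5.44, 3.62 and 2.58 RPKM on days 7, 10, 16 and 19. Since the rule asks for low values on those days, this is a description of what was chosen. Most members were present at other stages: 59 had a median of 1 RPKM or more on every other day, 7 stayed under 1 RPKM on all 4, and 1 of these had a median of 0 on all 4.

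The ratio of the day 13 median to the highest other median was 4.31 for the middle member. It was 10 or more for 12 members, 5 to 10 for 29 and 3 to 5 for 66, of which 41 lay between 3 and 4. Day 10 held the highest other median for 52 members, day 7 for 23, day 16 for 16 and day 19 for 15. Just inside the limit, ENSBTAT00000017563 had a median of 141 RPKM on day 13 and 46.6 on day 10, a ratio of 3.03, and ENSBTAT00000019060 had 20.3 on day 13 and 6.66 on day 7, a ratio of 3.05. Just outside, ENSBTAT00000054666 reached 2.998 (25.4 RPKM against 8.46 on day 7) and ENSBTAT00000004383 reached 2.992 (14.8 against 4.94 on day 10). The values show no gap at the limit.

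**Figure D1:**
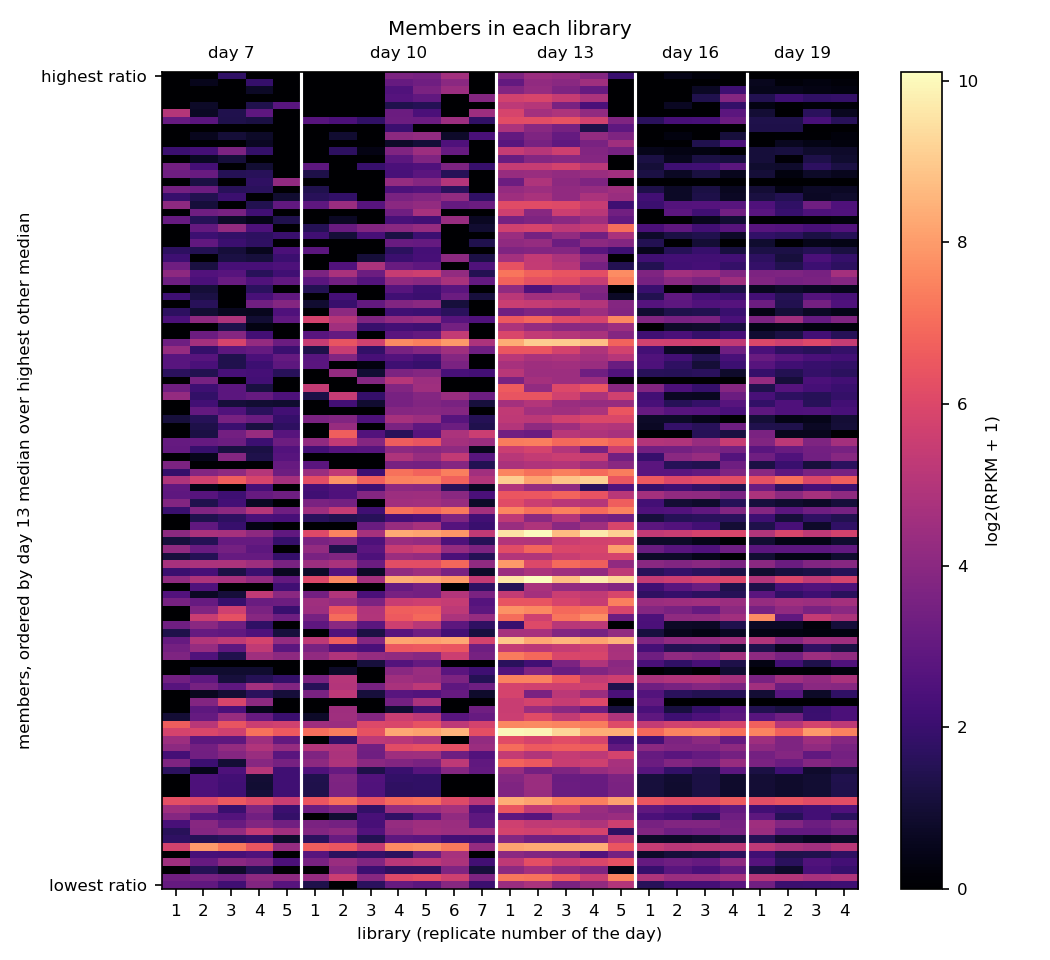
Each row is 1 of the 107 members, ordered by the ratio of the day 13 median to the highest other median, and each column is 1 library of the labelled day; colour gives log2(RPKM + 1). The day 13 columns are the brightest by construction of the rule, day 10 replicates 4, 5 and 6 are brighter than the other day 10 columns, and 13 rows are dark in day 13 replicate 5.

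The same limits applied to each other day chose 166 transcripts for day 7, 7 for day 10, 134 for day 16 and 1 for day 19. Among the day 13 members, 28 of 107 (26.2%) had every day 13 replicate above every replicate of the other 4 days, against 1 of 166 for the day 7 set and 5 of 134 for the day 16 set. Over all 19186 transcripts tested below, 0.412% met this on day 13. That background was not computed for days 7 and 16, so the sets cannot be ranked by these numbers. The sets were chosen for their height on the day, and the groups differ in size, with 3 replicates on day 16, so these shares are a description with no test. The median length of the day 13 members was 1555 nucleotides, close to the 1514 of the day 7 set, and that of the day 16 set was 763.5. Transcripts under 200 nucleotides, whose RPKM rests on few reads, made up 4.67% of the day 13 members, 4.22% of the day 7 set and 21.6% of the day 16 set. Other transcripts at 10 RPKM or more on day 13 had a median length of 1755 nucleotides, and 0.446% of them were under 200.

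Some members ran so closely together in their read numbers that they are called shared-read sets below. The reads themselves were not at hand, so sharing is inferred. In 6 sets with 14 members in all, the read numbers of the members ran in parallel over the libraries (Pearson correlation of log2 reads of at least 0.98 and a median difference of at most 20%), which leaves 99 distinct profiles among the 107. The members of a set can be transcripts of 1 gene or near-identical copies whose reads were counted more than once. The most abundant pair, ENSBTAT00000004170 and ENSBTAT00000004171, differed in reads by a median of 4.0%, and ENSBTAT00000028557 and ENSBTAT00000053439 by 0.0%. Such members are not independent observations.

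Together the members took 1.39 ± 0.245% of the reads on day 13 (SD, n = 5). In replicates 1 to 5 the share was 1.71, 1.58, 1.26, 1.16 and 1.21%, so replicate 5 lay inside the range of the others by this sum. The share was 0.174 ± 0.0388% on day 7 (n = 5), 0.196 ± 0.0157% on day 16 (n = 3) and 0.198 ± 0.0132% on day 19 (n = 4). All 12 replicates of those 3 days lay between 0.122 and 0.224%. The 2 libraries in which the most abundant transcript of the series takes a large part of the reads, day 7 replicate 5 and day 10 replicate 7, had 0.122 and 0.137%, and 0.185 and 0.223% once that transcript was taken out of the total. The 3 libraries left out by the rule, whose values it did not use, held 0.118% (labelled day 16, 95% Wilson interval 0.116 to 0.121), 0.162% (labelled day 19, 0.154 to 0.171) and 0.164% (labelled day 7, 0.157 to 0.172). These intervals cover counting error only. In those libraries 104, 101 and 104 of the 107 members lay below the day 13 median divided by 3, in the same order, and 0, 1 and 1 reached the day 13 median.

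**Figure D2:**
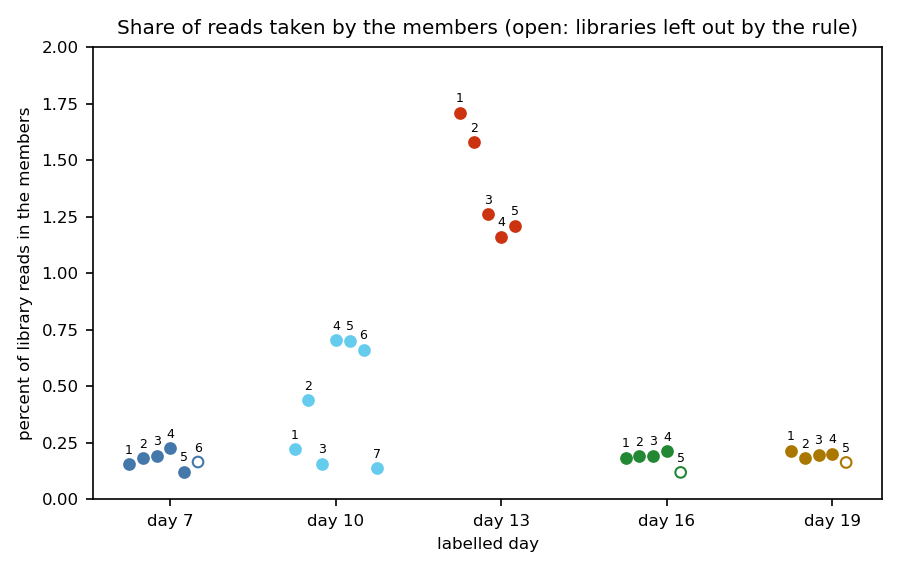
Percent of each library's reads that fell on the 107 members, by labelled day; each point is 1 library (day 16 replicates 2 and 3 drawn separately), and open points are the 3 libraries left out by the rule. Day 13 runs from 1.16 to 1.71%, day 10 from 0.137 to 0.703%, and the replicates of days 7, 16 and 19 stay at or under 0.224%.

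Day 10 was the least even group in the members' share of reads. The share of reads was 0.431 ± 0.26% (SD, n = 7), and in replicates 1 to 7 it was 0.22, 0.437, 0.157, 0.703, 0.7, 0.66 and 0.137%. Replicates 4, 5 and 6 lay highest, replicates 1, 3 and 7 lowest, and every day 10 value lay below the lowest day 13 value. The middle member had a coefficient of variation of 96.0% over the day 10 replicates, against 38.8% on day 19. Replicates 1 to 7 held 1016135, 640839, 2646377, 5106242, 5202316, 778324 and 681611 reads, so the 2 deepest had the 2 highest shares, and the part of depth in this spread was not tested. Replicates 4 and 5 were the most alike pair of that day (mean chi-square 4.49), and the values do not tell if they hold material of the same embryos. The labels give no stage or size of the single embryos in these pools.

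Member by member, 24 of the 107 had at least 1 day 10 library at or above their day 13 median, against 4 with such a day 7 library, 1 with such a day 19 library and 0 on day 16. In day 10 replicates 1 to 7, the number of members at or above the day 13 median was 0, 8, 0, 7, 7, 11 and 1. The number at or above the day 13 median divided by 3 was 5, 29, 8, 61, 63, 51 and 7. The rule itself keeps the day 10 median of each member at or under that level. It thus limits how many of the 7 libraries can lie above it. The other groups compared were smaller, so they had fewer libraries that could reach the day 13 median. Such counts were not made over all transcripts. These numbers are therefore a description, and the lead of day 10 is not read as a trait of the members.

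The member with the highest ratio, ENSBTAT00000031546 (1104 nucleotides), had high day 10 libraries beside a low day 10 median. Its level on day 13 was 12.0, 20.3, 18.0, 13.3 and 2.94 RPKM in replicates 1 to 5. On day 10 it was 11.5, 10.6 and 23.3 RPKM in replicates 4, 5 and 6 and had no read in the other 4, so its median there is 0 although 3 libraries lay within or above the range of day 13. On day 7 it had a read in 1 of 5 replicates, at 2.52 RPKM. On day 16 only the averaged sample had reads, at 0.265 RPKM. There was none in 4 of 4 replicates on day 19, and the day 13 mean of 13.3 ± 6.7 RPKM (SD, n = 5) was at least 181-fold higher than the 0.0734 RPKM that 3 reads over all of day 19 would give.

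ENSBTAT00000008646 (771 nucleotides), second by that ratio, had the same shape. It stood at 7.18, 16.8, 14.8 and 22.2 RPKM in day 13 replicates 1 to 4 and had no read in replicate 5, where 3 reads would give 3.16 RPKM. On day 10 it was at 7.62, 8.97 and 15.0 RPKM in replicates 4, 5 and 6 and unread in the other 4. No read was found in 3 of 3 day 16 replicates, and the day 13 mean of 12.2 ± 8.7 RPKM was at least 37.1-fold higher than the 0.329 RPKM of 3 reads over that day. On day 19 it was at 0.121 to 0.485 RPKM.

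The 2 members with the highest day 13 level form 1 of the shared-read pairs. ENSBTAT00000004171 (1175 nucleotides) was at 766, 1100, 430, 851 and 598 RPKM in day 13 replicates 1 to 5, a mean of 749 ± 255 (SD, n = 5). On day 10 it was at 63.6, 194, 23.5, 321, 297, 249 and 41.2 RPKM in replicates 1 to 7, a mean of 170 ± 126. It was lower on the remaining days, at 18.4 ± 7.84 RPKM on day 7 (n = 5), 50.7 ± 9.59 on day 16 (n = 3) and 46.4 ± 14.8 on day 19 (n = 4). The day 13 replicates did not overlap with any other day, and those of days 16 and 19 overlapped with each other. ENSBTAT00000004170 followed it closely, at 725 ± 249 RPKM on day 13 and 166 ± 123 on day 10. Here replicate 5 of day 13 lay within the range of the other 4.

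**Figure D3:**
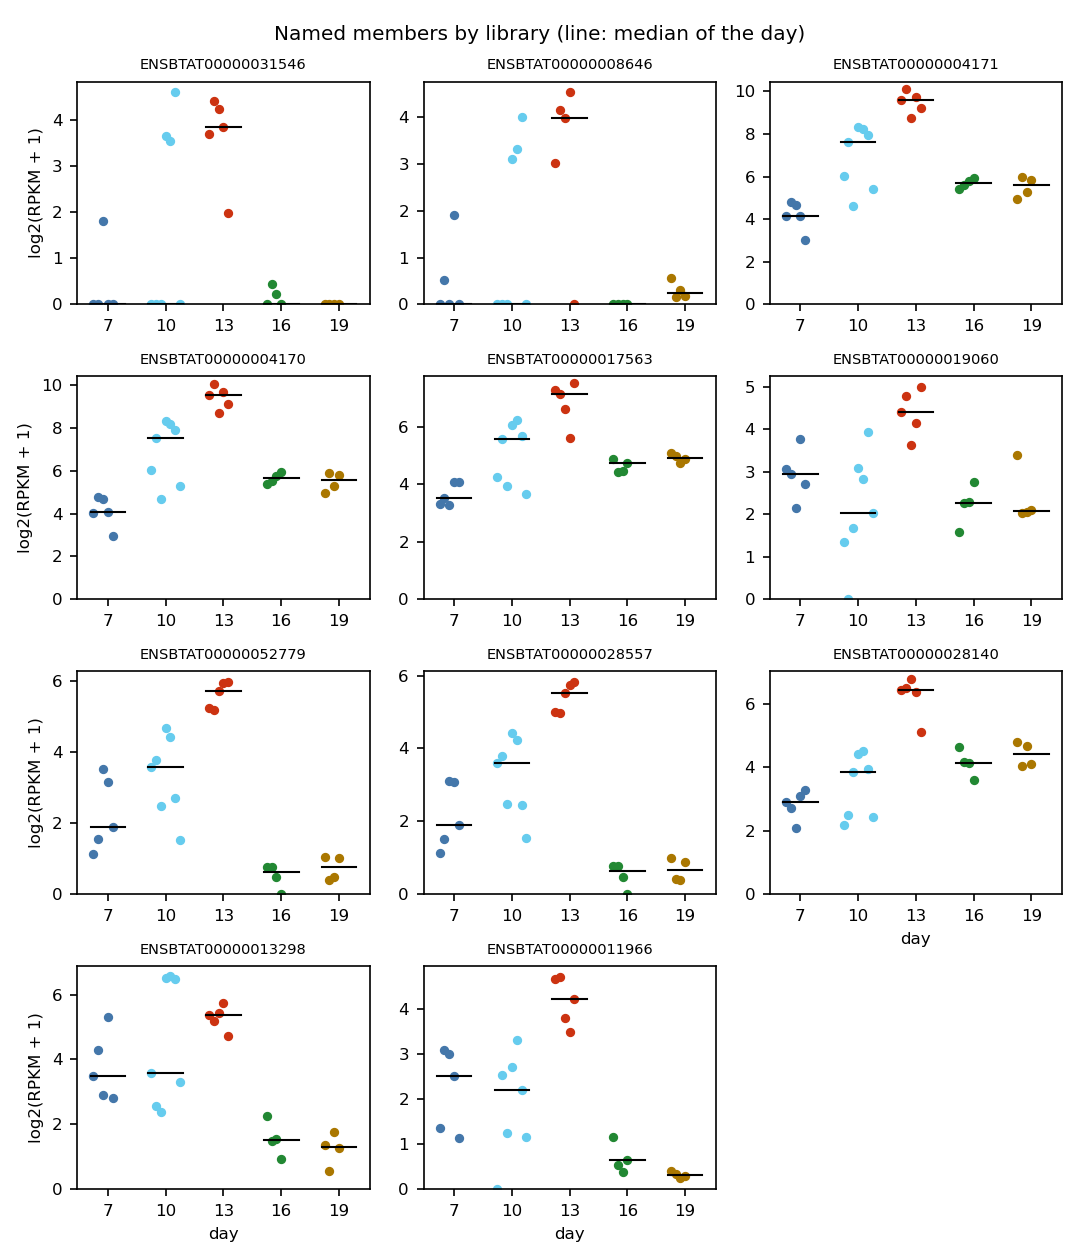
log2(RPKM + 1) of the members chosen by rule for naming, in each library by day, with a line at the median of the day and a panel for each transcript. The spread is widest on day 10, where ENSBTAT00000031546 and ENSBTAT00000008646 have 3 libraries at their day 13 level and 4 at 0.

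Within day 13, replicates 1 to 4 were closer to one another than to replicate 5. The middle member had a coefficient of variation of 32.1% over replicates 1 to 4 and 49.7% over all 5, and for 88 members it was under 50% in those 4. Replicate 5 held the lowest day 13 value for 51 members and the highest for 26. It was under the median of the other 4 divided by 3 for 40 members and over 3 times that median for 3. The median ratio was 0.61. None of these counts was made over all transcripts, whose chi-square also set replicate 5 apart, so nothing particular to the members is read from them. The 3 with the larger rise in that library, singled out after their values were seen, were ENSBTAT00000006249 (265 RPKM against a median of 65.2 in the other 4), ENSBTAT00000009273 (36.2 against 10.4) and ENSBTAT00000030336 (86.4 against 25).

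No read was found in replicate 5 for 13 members, all of which had reads in each of the other 4. Over the whole series, 14024 transcripts had a read in replicate 5, against 17612 to 17850 in replicates 1 to 4. At the median level of replicates 1 to 4, the depth of replicate 5 would give 2.1 reads for ENSBTAT00000042299 (84 nucleotides) and 2.12 for ENSBTAT00000028735 (126 nucleotides), under the limit of 3 reads, so a lower level of these was not detectable. It would give 4.88 to 81.3 reads for the other 11, and 4.88 and 6.53 for the shortest of them, ENSBTAT00000050892 and ENSBTAT00000057063. These 4 and the member with the highest such number, ENSBTAT00000054493 (1555 nucleotides), were singled out after their values were seen. The last was at 41.5, 43.3, 54.0 and 34.6 RPKM in replicates 1 to 4, and 3 reads in replicate 5 would give 1.57 RPKM. For 27 members replicate 5 lay under the highest median of the other days, against 3, 1, 0 and 1 members in replicates 1 to 4. The members with more and those with less in replicate 5 were both inside the chosen set, and the sum of reads shows neither.

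**Figure D4:**
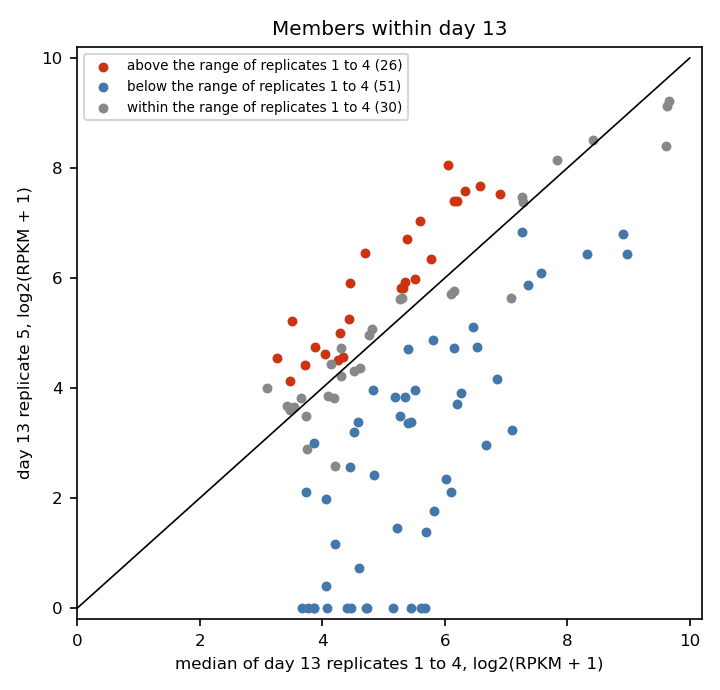
Level of each of the 107 members in day 13 replicate 5 against its median in day 13 replicates 1 to 4, both as log2(RPKM + 1), with the line of equal values. The points lie on both sides of the line: 51 members are below all of the other 4 libraries, 26 above all of them and 30 within their range, and 13 lie at 0.

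The number of members that clear the other days depends on this library. In all 5 day 13 libraries, 24 members were at least 3 times the highest other median, and in replicates 1 to 4 alone 52 were. Every day 13 replicate lay above every day 7 replicate for 64 members (background over all tested transcripts 3.46%), above every day 10 replicate for 28 (0.933%), above every day 16 replicate for 75 (9.88%) and above every day 19 replicate for 73 (11.4%). Without replicate 5 these numbers were 92 (6.8%), 48 (2.48%), 101 (19.3%) and 98 (21.7%), and 46 members (1.04%) cleared all 4 days. These contrasts are the ones the rule used, so nothing is read from them. Day 10 was the day the fewest members cleared in both counts. It also had the lowest background in both. With 7 replicates, against 5, 3 and 4 on days 7, 16 and 19, it had the most to clear. The order is therefore not read as a trait of the members. The members that cleared all days with all 5 libraries include ENSBTAT00000004171, ENSBTAT00000028557, ENSBTAT00000052779, ENSBTAT00000028140 and ENSBTAT00000011966.

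Differences among the other days were fitted over all transcripts and read off for the members. The rule used no difference between those days, but it set a ceiling on each median, so the members' values are not free of it. limma was fitted to log2(RPKM + 1) for the 19186 transcripts that reached 1 RPKM in 4 or more replicates, with 5 days in 1 model. Calls needed both an adjusted p under 0.05 (Benjamini-Hochberg, over all tested) and a log2 change of at least 1 in size. All 107 members passed the filter, 105 of them through replicates of days other than 13. The 4 comparisons share groups (day 7, day 10, day 16 and day 19 each enter 2 of them), so each is given by its own values. The rule bounded the medians of all these days, while limma compares means of log values. A member with a few high day 10 libraries could thus pass the ceiling and still have a raised day 10 estimate. Members of shared-read sets are each counted. The calls of members, the signs of their estimates and the shares under an unadjusted p are therefore a description of the chosen set, with no test of it.

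Between day 7 and day 10, before the peak, 0 of the 107 members were called, against a background of 0.00521% (1 of 19186). voom on the recovered reads also called 0 members. At an unadjusted limma p under 0.05 there were 24 members, 22.4% against 9.53% of all tested, and the estimate was higher on day 10 in all 24. Some of the 24 belong to shared-read sets, such as the abundant pair, so they are taken as fewer observations. Over all members the log2 change had a median of 0.75 with 88 positive and 19 negative estimates, while all tested transcripts had a median of -0.04 and 47.0% positive. Without day 10 replicate 5 the members' median was 0.49, without replicate 4 it was 0.54, and with these replicates averaged as 1 sample 0.52, a setting added after seeing the data. The members under p 0.05 then numbered 19, 18 and 18. The largest estimates were those of the abundant pair: 2.75 ± 0.51 (SE) for ENSBTAT00000004170 and 2.72 ± 0.51 for ENSBTAT00000004171, both with adjusted p = 0.073. For ENSBTAT00000004171, day 7 replicates 1 to 5 stood at 16.53, 27.2, 24.45, 16.76 and 7.19 RPKM, and day 10 replicate 3, at 23.5, lay within that range. Calls appeared when single libraries were left out: leaving out day 10 replicate 7 gave 5 members, day 10 replicate 3 gave 4, and day 10 replicate 1 or day 7 replicate 5 gave 3 each, all higher on day 10.

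From day 10 to day 16, across the peak, 3 members were lower and 0 were higher, against backgrounds of 0.208% lower and 0.896% higher (1.1% in either direction). The 3 are 1 shared-read set, so they are taken as 1 observation. ENSBTAT00000052779 (2310 nucleotides) was at 11.1, 12.8, 4.58, 24.5, 20.7, 5.56 and 1.91 RPKM in day 10 replicates 1 to 7, and at 0.706, 0.545 and 0 in the day 16 samples. Every day 10 replicate lay above every day 16 sample. The share of all transcripts without overlap was not computed for these days, nor for days 7 and 19 below. In all, the day 16 samples held 12 reads of ENSBTAT00000052779, so its separation from the lowest day 10 value rests on few reads. Its log2 change was -2.85 ± 0.58 (SE, limma adjusted p = 0.0129; 0.00236 to 0.251 over 38 alternatives). ENSBTAT00000028557 gave -2.75 ± 0.56 (adjusted p = 0.0123) and ENSBTAT00000053439 -2.75 ± 0.56 (adjusted p = 0.0123). On day 13 ENSBTAT00000052779 stood at 37.3, 35.3, 51.7, 61.5 and 62.2 RPKM, with replicate 5 the highest, and on day 19 at 0.7 ± 0.392 (n = 4). All 3 calls ended when day 16 replicate 4 or the averaged sample of replicates 2 and 3 was left out, and in the model of these 2 days alone.

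Over all 107 members, the called ones included, 78 estimates from day 10 to day 16 were negative, with a median of -0.43 over the set. All tested transcripts had a median of 0.15 and 58.1% positive estimates. At an unadjusted p under 0.05 there were 12 members, the called ones among them (11.2%, against 14.1% of all tested), all with a negative estimate. This number, and its side of the background, depended on single libraries and on scaling. It was 25 without day 10 replicate 1 (23.4% against 16.7%), 25 without replicate 3 (23.4% against 13.3%) and 26 without replicate 7 (24.3% against 14.8%). It was 24 with median centring (22.4% against 14.2%), 32 with quantile normalization (29.9%, also above its background), 28 with total reads as a covariate (26.2% against 15.5%) and 30 with voom (28% against 17%). With day 16 replicates 2 and 3 both counted it was 26 (24.3% against 18.2%), and with all 28 libraries as labelled 32 (29.9% against 15.8%). The members' share stayed below the background without day 10 replicate 2 (12.1% against 14.2%), 4 (10.3% against 14%), 5 (10.3% against 14.3%) or 6 (12.1% against 14.8%). The same held with a pseudocount of 0.1 (10.3% against 14.3%) or 0.5 (11.2% against 14.4%) and with no filter (10.3% against 15.7%). It also held without any single replicate of day 13 or day 19. Without day 16 replicate 1 (9.35% against 10.6%) or the averaged sample (9.35% against 10.9%) the share was below as well. It lay above the background without day 16 replicate 4 (12.1% against 7.78%). The same was so in the model of these 2 days alone (14.3% against 10.9%) and with thinned reads (15.4% against 11.5%). ENSBTAT00000013298 had the largest of all the negative estimates, -2.91 ± 0.78, but adjusted p = 0.063. RNA preparation differs between these 2 days, as does pooling by the protocols. Their part in the differences was not tested.

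Between the filaments of days 16 and 19, which share the RNA preparation, 0 members were called, against 0.235% of all tested. voom also called 0, and no member had an unadjusted limma p under 0.05, against 6.75% of all tested (6 members in the model of these 2 days alone, 7.59% against 8.74%). The median log2 change was -0.11 over members and -0.17 over all transcripts. Centring each library on its median moved these to 0.22 and 0.17, so the direction of the members' median depends on the scaling. The members lay low on both days, and a median level of 3.62 and 2.58 RPKM leaves small differences undetectable on the log2(RPKM + 1) scale.

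Between the ends of the series, days 7 and 19, 1 member was higher and 2 were lower on day 19, against 3.28% and 3.51% of all tested. RNA preparation differs between these days. By the protocols, day 7 also used pools of embryos from superovulated donors, and day 19 single conceptuses. These differences cannot be told apart from stage. ENSBTAT00000028140 (1689 nucleotides) stood at 6.57, 5.54, 3.29, 7.53 and 8.75 RPKM on day 7 and at 26.9, 15.6, 24.3 and 16.23 on day 19. The groups did not overlap, and the log2 change was 1.58 ± 0.47 (SE, limma adjusted p = 0.0412; 0.0101 to 0.456 over 38 alternatives). On day 13 it was at 86.0, 89.1, 110, 81.5 and 33.6 RPKM, above all replicates of the other days, replicate 5 included.

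ENSBTAT00000013298 (3840 nucleotides) stood at 10.11, 18.5, 6.52, 38.5 and 6.05 RPKM on day 7 and at 1.56, 0.488, 2.37 and 1.39 on day 19, without overlap. Its log2 change was -2.52 ± 0.76 (SE, adjusted p = 0.0418; 0.00644 to 0.29 over 38 alternatives). On day 10 the same transcript was at 90.3, 94.3 and 87.7 RPKM in replicates 4, 5 and 6 and at 4.23 to 11.02 in the other 4, and those 3 libraries lay above all 5 of day 13 (25.1 to 52.5 RPKM). The 7 day 10 replicates had a mean of 43.0 ± 44.7 RPKM (SD), and the 5 of day 13 a mean of 39.1 ± 9.98. It is a member through the day 10 median of 11.02 RPKM.

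ENSBTAT00000011966 (3583 nucleotides) stood at 1.55, 7.45, 6.98, 4.74 and 1.18 RPKM on day 7 and at 0.313, 0.261, 0.18 and 0.22 on day 19, again without overlap. Its log2 change was -1.90 ± 0.57 (SE, adjusted p = 0.0414; 0.00143 to 0.388 over 38 alternatives). It reached 24.5, 25.2, 12.9, 10.24 and 17.7 RPKM on day 13, above every replicate of the other days. Each of the 3 calls held in 25 of 38 alternatives, and none held without any 1 of the 4 day 19 replicates. The counts of calls were also 0 without day 7 replicate 2, 3 or 4 and 1 without day 7 replicate 1, day 13 replicate 1, day 13 replicate 3 or day 16 replicates 2 and 3. Over all members 54 estimates were positive and 53 negative, with a median of 0.01 against -0.19 for all tested transcripts. The balance depended on the scaling: 67 positive and 40 negative with median centring (median 0.30, all tested 0.09), 34 and 73 with total reads as a covariate (-0.54, all tested -0.25) and 44 and 63 with voom (-0.28, all tested -0.46). In the model as first given, 18 members (16.8%) had an unadjusted p under 0.05 against 21.2% of all tested.

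**Figure D5:**
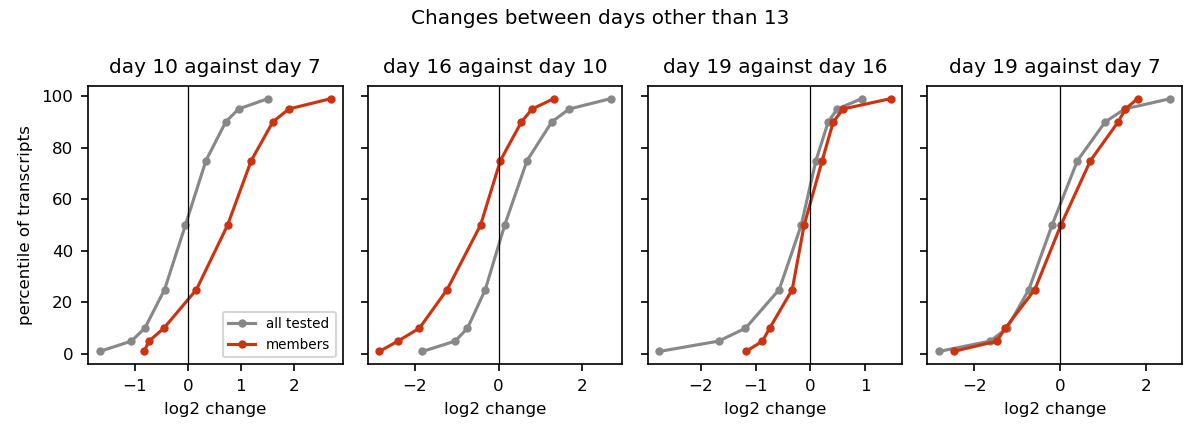
Percentiles of the log2 change over the 107 members and over all 19186 tested transcripts, for the 4 comparisons between days other than 13. The members lie to the right of all transcripts for day 10 against day 7 (medians 0.75 and -0.04) and to the left for day 16 against day 10 (-0.43 and 0.15), and the medians of the last 2 comparisons are closer.

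How the middle of a day is taken decides part of the list. With the mean of each day in place of the median, 109 transcripts met the same limits, and 66 of the 107 were among them. Without 1 replicate at a time the number ran from 81 to 130, and 55 members met the limits in every one of the 24 such sets. It was 81, 82 and 82 without day 10 replicate 1, 3 or 7, and 127, 130 and 120 without day 10 replicate 4, 5 or 6. Without day 13 replicate 5 it was 122, with 96 of the 107 among them, and 77 members met the limits whichever day 13 replicate was left out.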

How the data were processed

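The authors deposited 1 RPKM value per Ensembl transcript identifier and library. The submitters' processing notes name CASAVA with neither version nor role; aligner settings, genome build and annotation were not given in the sources used here. Every deposited RPKM above 0 was a whole number of reads (within 1e-06) over a length and a total, which gave back the reads, lengths and totals (at least 99.9779% of each total). RPKM divides by the library total, so a dominant transcript lowers all others.

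Groups follow the labels; replicate numbers are accession order. The members and lists were chosen with earlier results of these data known. Medians and shares were computed in Python 3.11.15, and changes with limma 3.58.1 in R 4.3.3 (lmFit, eBayes with trend and robust, pseudocount 1). A simulation covered only day 16 against day 10. It took its spread from day 19, where the members varied less than on day 10, and nothing is read from it. Alternatives changed the pseudocount (0.1, 0.5), filter, model, scaling, depth (reads thinned to 300000), samples and the rule's limits; voom took the recovered reads. Averaging day 10 replicates 4 and 5, and leaving out 3 libraries together, were chosen after seeing the data. Named are, by identifier, the 2 members with the highest ratio (0.1 RPKM added), the 2 with the highest day 13 median, 2 on each side of the 3-fold limit, and up to 2 called members per direction and comparison. Gene lists and cell type markers could not be matched to identifiers and were not used here.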

Additional observations from a re-analysis of the deposited data

Results flagged for a closer look

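In each day with 4 to 7 replicates, the levels of the named members and the members' share of reads were checked for 1 replicate lying far from the rest. This was so in 3 of 47 groups; by chance about 1 in 20 would show it, or 2.4 if the groups were independent, which they are not. ENSBTAT00000031546 was at 2.52 RPKM in day 7 replicate 3 and had no read in the other 4 replicates of that day. ENSBTAT00000008646 was at 2.75 RPKM in day 7 replicate 4, the next highest being 0.441. ENSBTAT00000019060 was at 9.5 RPKM in day 19 replicate 1, the next highest being 3.29.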

How the results depend on the processing

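The set held 303 transcripts at a fold limit of 2 (all 107 among them) and 41 at 5. Leaving out 1 replicate gave 81 to 130, and the other 10 alternatives stayed within 1.5 times 107 in number. A similar number did not mean the same members. Of the 107, 78 were among the 144 transcripts chosen from thinned reads, and all 107 among the 160 at a day 13 limit of 5 RPKM. For day 10 against day 7 (0 calls), median centring, quantile normalization and total reads as a covariate each gave 2 called members, the setting without day 13 replicate 5, day 7 replicate 5 and day 10 replicate 7 (added after seeing the data) gave 6, and leaving out 1 replicate 0 to 5. For day 16 against day 10 (3 calls), the model of the 2 days alone gave 0, thinned reads 1, quantile normalization, the covariate and the added setting 5 each, all 28 libraries as labelled and day 16 replicates 2 and 3 both counted 6 each, and leaving out 1 replicate 0 to 7, all lower. For day 19 against day 7 (3 calls), no filter and all 28 libraries gave 0, quantile normalization 5, the 2-day model and median centring 9 each, the added setting 13, voom 15 (2 higher, 13 lower), and leaving out 1 replicate 0 to 4. Day 19 against day 16 gave 0 in all 38. The cause of these changes was not tested. No change of the 6 called members changed sign in its 38 alternatives. No paired analysis was possible because replicate numbers follow accession order and pair no samples. Levels under 3 reads (6.34 CPM in the shallowest library, 0.276 in the deepest) cannot be read.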
